A study of Mus musculus with 24 samples.

Results

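RNA of Flk1+ cells was compared between 95 h and 84 h of embryoid body differentiation, across all probes of the array. The comparison took the 4 arrays of Flk1+ cells at 84 h and the 4 at 95 h, chosen by their titles, which makes 8 of the 24 arrays of the series. Embryoid bodies are aggregates in which mouse embryonic stem cells differentiate, and Flk1 is the VEGF receptor encoded by Kdr. Cells with Flk1 on their surface (Flk1+) and cells without it (Flk1-) were collected at 84 h, 95 h and 8 d, with 4 samples in each of the 6 groups. Each sample carried Cy5 and was hybridised to a two-colour Agilent mouse development array together with Cy3 RNA of whole mouse pups, which served as a common reference. By its title, the study asks what Wnt signalling does when embryonic stem cells become committed to endothelium. The labels give no genotype, cell line, treatment or purity of the sort for any group. They number the samples of a group 1 to 4 without saying that these were separate cultures, so the variation behind the p-values may be technical.

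In the early embryo and in embryoid bodies, Flk1 marks mesoderm that has recently left the primitive streak, and cells of this mesoderm can give rise to endothelium, blood, smooth muscle and heart muscle. Streak and epiblast regulators are switched off as such mesoderm matures, while receptors and ligands of the VEGF, Notch and BMP pathways help to set its later fates. Wnt ligands act through Frizzled and Lrp receptors to stabilise beta-catenin, which then activates genes together with Lef1 and Tcf factors.

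Values are read as log2 ratios of sample over pup reference with the median of each array at 0, so a level of 0 is the array's median ratio and a difference of 1 is a doubling. With the ratio turned, every rise would be a fall of the same size, but as the ratio is read here the Flk1+ arrays have more Kdr RNA than the Flk1- ones. A feature is a named gene, with its probes averaged, or a probe with no single gene name. The 17440 features comprised 8973 named genes and 8467 unnamed probes. A feature was called when limma's adjusted p was under 0.05 in a fit of all 24 arrays, in which the 6 groups share 1 estimate of the spread. For arrays, their number limits the precision, and the deposited table gives ratios only, with no signal over background, so a strongly negative ratio may be close to the detection limit.

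Arrays 2 and 4 of Flk1+ cells at 84 h stood apart from the other arrays compared. Over all features, 84 h arrays 1 and 3 correlated at 0.93 and arrays 2 and 4 at 0.839, but correlations between these pairs ran from 0.59 to 0.689. Arrays 1 and 3 were closer to the 95 h arrays, at 0.76 to 0.878, than arrays 2 and 4 were, at 0.494 to 0.623. The 95 h arrays correlated at 0.752 to 0.855 with one another. The SD over features was 0.97 to 0.973 on 84 h arrays 2 and 4, 0.792 to 0.835 on 84 h arrays 1 and 3 and 0.724 to 0.766 on the 95 h arrays. No label sets arrays 2 and 4 apart, and what made them differ was not tested. Values are therefore given with all arrays and again without these 2, when 84 h rests on arrays 1 and 3.

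With all arrays, 1947 features were higher at 95 h, which is 11.2% of those tested, and 1504 were lower, which is 8.62%. Without 84 h arrays 2 and 4, 647 features (3.71%) were higher and 235 (1.35%) lower. Both fits called 600 features in the same direction and none in opposite directions. These were 445 higher ones (2.55% of all features) and 155 lower ones (0.889%). The 600 made up 17.4% of the calls with all arrays and 68% of the calls without the 2 arrays. The fits share 6 of the 8 arrays, so the overlap is a description and no second test. Of the 600, 274 were named genes, 224 higher and 50 lower. Values of the 84 h arrays did not overlap with those of the 95 h arrays for 2301 features (13.2%), among them 429 of the 600.

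The calls rested on the spread pooled over all groups, and the groups differed in it. Arrays correlated at 0.59 to 0.93 within Flk1+ 84 h, 0.752 to 0.855 within Flk1+ 95 h and 0.925 to 0.955 within Flk1+ 8 d. The p-values therefore do not measure the spread of the arrays compared alone. When limma was given the 8 arrays compared alone, it called 0 features, with 3020 at an unadjusted p under 0.05 and a lowest adjusted p of 0.112. Without 84 h arrays 2 and 4 it called 0 features on the 6 arrays left, with 2258 at an unadjusted p under 0.05 and a lowest adjusted p of 0.127. The differences themselves cannot change in these fits, as each is a difference of group means, so only the spread and its precision differ. With the values as deposited, before array medians were set to 0, 1648 features were higher and 2018 lower, so the share of higher calls was 45% there and 56.4% after centring.

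**Figure D1:**
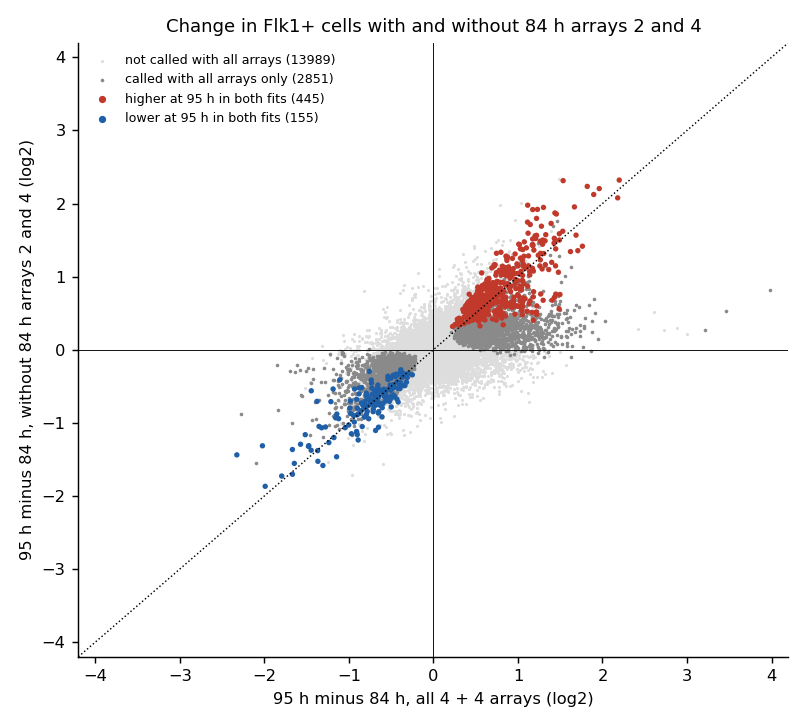
Each point is 1 of 17440 features. The x axis is the 95 h minus 84 h difference in Flk1+ cells (log2) with all arrays, the y axis the same difference without 84 h arrays 2 and 4, and the dotted line marks equal values. The 445 red and 155 blue points were called in both fits, and the 2851 dark grey points with all arrays only, such as Psma1, a proteasome subunit, at 1.86 on the x axis and -0.01 on the y axis.

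Kdr, the gene of the sort, separated Flk1+ from Flk1- cells at both times. In Flk1+ cells its level was 1.80, 0.04, 1.43 and 0.67 on 84 h arrays 1 to 4 and 1.88, 1.73, 1.79 and 1.98 on 95 h arrays 1 to 4. In Flk1- cells it averaged -0.92 ± 0.15 at 84 h and -1.08 ± 0.15 at 95 h (SD, n = 4). Arrays 2 and 4 at 84 h had the 2 lowest Kdr levels of the 8 Flk1+ arrays, and both lay above the mean of Flk1- cells. The 95 h minus 84 h difference was 0.86 with all arrays (SE 0.23, adjusted p = 0.0165) and 0.23 without the 2 arrays (adjusted p = 0.338). The call on Kdr thus depended on 84 h arrays 2 and 4.

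Genes of the primitive streak, endoderm and epiblast were among those that fell. Lhx1, a LIM homeodomain factor of the streak and organizer, was at 3.01, 3.85, 3.31 and 3.58 on the 84 h arrays and at 2.04, 1.28, 2.07 and 2.08 on the 95 h arrays. Every 95 h array was below every 84 h array. Lhx1 fell by 1.57 (SE 0.27, adjusted p = 0.00131), and the difference was -1.29 without arrays 2 and 4 (adjusted p = 0.025). In bulk RNA, fewer cells expressing a gene and less of its RNA per cell cannot be told apart.

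Foxa2, a forkhead factor of endoderm and axial mesoderm, went from 0.68, 1.46, 1.04 and 1.16 at 84 h to -0.01, 0.04, 0.28 and -0.60 at 95 h. The groups did not overlap, and the difference was -1.16 with all arrays (SE 0.20, adjusted p = 0.00137) and -0.93 without the 2 arrays (adjusted p = 0.0252). Trh, which encodes thyrotropin-releasing hormone and was counted with the endoderm genes, fell by 0.98 (adjusted p = 0.0015), with a difference of -0.70 without the 2 arrays (adjusted p = 0.0266). Foxa2 and Trh were the only members of the endoderm list called in both fits, out of 14 measured, while 0.889% of all features were lower there. With all arrays 1 of the 14 was higher and 2 were lower, against 11.2% and 8.62% of all features. The list's median difference was 0.08, against -0.00 over all features. The secreted products transthyretin (Ttr), apolipoprotein A-I (Apoa1) and albumin (Alb) were not called, at 0.30 (adjusted p = 0.17), 0.00 (adjusted p = 0.994) and 0.26 (adjusted p = 0.181), and at 0.28, 0.04 and 0.31 without the 2 arrays.

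Of 11 measured genes of the streak and nascent mesoderm, 4 were lower and 0 higher with all arrays, and Lhx1 alone was called in both fits. Over all features 8.62% were lower with all arrays and 0.889% in both fits. The list's median was -0.33 with all arrays and -0.26 without arrays 2 and 4, but -0.04 after quantile normalization, which gives all arrays the same spread. Tdgf1, the Nodal coreceptor Cripto, was at 3.56, 4.25, 4.03 and 5.13 at 84 h and at 3.30, 3.01, 2.73 and 3.41 at 95 h. Its groups did not overlap, with a difference of -1.13 (adjusted p = 0.00485), but without arrays 2 and 4 it was -0.69 and missed the threshold (adjusted p = 0.0694). Goosecoid (Gsc), an organizer homeobox gene, also lost its call, with -0.56 (adjusted p = 0.035) against -0.26 (adjusted p = 0.476).

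Mesp1, a bHLH factor of the earliest mesoderm, had levels of 3.76, 4.67, 3.85 and 4.70 at 84 h and of 3.72, 3.30, 3.71 and 3.70 at 95 h. It was not called with all arrays (-0.64, adjusted p = 0.101) or without the 2 arrays (-0.20, adjusted p = 0.764). The high 84 h values were those of arrays 2 and 4. Eomes, a T-box gene of the streak, had a difference of 0.38 that was not called (adjusted p = 0.0808), nor was 0.44 without the 2 arrays (adjusted p = 0.136).

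Among 26 measured pluripotency and epiblast genes, 5 were lower and 0 higher with all arrays, against 8.62% lower over all features, and the list's median was -0.11. Dnmt3b, which encodes a de novo DNA methyltransferase of the epiblast, and Otx2, an epiblast and anterior homeobox gene, were called in both fits. These were 2 of the 26, against 0.889% of all features lower in both fits. Dnmt3b was at 3.53, 3.34, 3.71 and 3.32 at 84 h and at 3.28, 2.60, 3.06 and 3.05 at 95 h. It fell by 0.48 (SE 0.14, adjusted p = 0.0258) with all arrays, and the difference was -0.62 (adjusted p = 0.0405) without the 2. The groups did not overlap, but the 2 Dnmt3b probes gave -0.80 and -0.16, and after quantile normalization of all arrays the difference was 0.04 (adjusted p = 0.918). For Otx2 the difference was -0.43 with all arrays (adjusted p = 0.0435) and -0.68 without the 2 (adjusted p = 0.0107), and its groups overlapped. The call on Otx2 was lost on leaving out any 1 of 84 h arrays 1, 2 and 3 or of 95 h arrays 2, 3 and 4, with differences of -0.44 to -0.33. That on Dnmt3b was lost without 84 h array 3 (-0.40, adjusted p = 0.0511) or 95 h array 2 (-0.34, adjusted p = 0.0911).

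The Nodal antagonists Lefty1 and Lefty2 were called only while arrays 2 and 4 were included. Lefty1 had a difference of -0.73 (adjusted p = 0.00888) with them and -0.61 (adjusted p = 0.0984) without them. Lefty2 had -1.12 (adjusted p = 0.00818) and -0.59 (adjusted p = 0.166). For 2 pluripotency genes the order was the other way round. Zfp42 (Rex1) was at 2.91, 0.97, 3.18 and 1.50 at 84 h and at 1.96 to 2.20 at 95 h, so the difference was -0.03 with all arrays (adjusted p = 0.949) and -0.94 without arrays 2 and 4 (adjusted p = 0.00611). Nanog, a core pluripotency factor, had -0.21 (adjusted p = 0.332) and -0.53 (adjusted p = 0.0273).

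Vascular genes were called in both directions, with all arrays at shares near those over all features (11.2% higher and 8.62% lower). Of 20 measured endothelial genes 2 were higher and 3 lower with all arrays, and of 29 genes of the VEGF, angiopoietin, PDGF and FGF pathways 4 were higher and 2 lower. In both fits 1 of the 20 endothelial genes was higher and 2 were lower, and 3 of the 29 pathway genes were higher and 1 lower. Over all features 2.55% were higher and 0.889% lower in both fits. Among the ligands, Vegfc, which binds the receptor Flt4, was at -0.33, -0.45, -0.59 and -1.26 at 84 h and at 0.28, 0.43, 0.63 and 0.12 at 95 h. All 84 h arrays were below 0 and all 95 h arrays above it. Vegfc rose by 1.02 (SE 0.16, adjusted p = 0.000873), which is 2.03-fold, and by 0.83 without arrays 2 and 4 (adjusted p = 0.00423).

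Angpt1, the ligand of the endothelial receptor Tek, was at -0.40, -1.05, -1.07 and 0.51 at 84 h and at 0.73, 0.52, 0.07 and 0.09 at 95 h. Array 4 of 84 h lay within the range of the 95 h arrays, and the difference was 0.85 (adjusted p = 0.0227) with all arrays and 1.09 (adjusted p = 0.00587) without arrays 2 and 4. The call on Angpt1 was lost, at 0.66 to 0.80, when 84 h array 2 or 3 or 95 h array 1 or 2 was left out alone. Vegfa, a ligand of Flk1 itself, was not called, with 0.34 (adjusted p = 0.101) and 0.04 (adjusted p = 0.902).

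Among the receptors, Nrp1, a coreceptor of Flk1, went from -1.05, -1.00, -1.14 and -1.16 at 84 h to -0.68, -0.88, -0.42 and -0.47 at 95 h. The groups did not overlap, and Nrp1 rose by 0.47 (SE 0.11, adjusted p = 0.00656) and by 0.48 without the 2 arrays (adjusted p = 0.0352). Its 3 probes gave 0.54, 0.87 and 0.01 with all arrays. The call on Nrp1 was lost when the probe with the largest SD replaced the average. It was also lost with quantile normalization, both with all arrays and without the 2. Flt1 (VEGF receptor 1) had a difference of -0.41 (adjusted p = 0.0693) and Flt4 of 0.46 (adjusted p = 0.184), neither called, and -0.20 and 0.42 without the 2 arrays.

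Aplnr, the apelin receptor of early mesoderm and vessels, fell. Its levels were 1.07, 0.95, 1.26 and 1.00 at 84 h and 0.45, 0.16, 0.52 and 0.54 at 95 h. No 95 h array reached the lowest 84 h array, and the difference was -0.65 (SE 0.16, adjusted p = 0.00968) with all arrays and -0.75 (adjusted p = 0.0315) without the 2. Sox18, an endothelial HMG-box factor, had a difference of -0.40 (adjusted p = 0.0258) and of -0.50 without the 2 arrays (adjusted p = 0.0385), with overlapping groups. Its call was lost without 84 h array 4 (-0.38, adjusted p = 0.0707) or 95 h array 2 (-0.30, adjusted p = 0.0887).

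Cdh5 (VE-cadherin) and Pecam1, junction genes of differentiated endothelium, and the surface gene Cd34 were not called in either fit. Cdh5 lay far below 0 at both times, from -3.42 to -3.14 at 84 h and from -3.23 to -2.96 at 95 h, and its difference of 0.12 (adjusted p = 0.588) turned to -0.32 after quantile normalization (adjusted p = 0.276). Pecam1 had 0.20 (adjusted p = 0.175) and Cd34 0.34 (adjusted p = 0.0524), the latter at -0.03 after quantile normalization (adjusted p = 0.918). Without arrays 2 and 4 Cdh5 had 0.18, Pecam1 0.32 and Cd34 0.41, with adjusted p of 0.646, 0.12 and 0.114. The median of the endothelial list was 0.07 with all arrays and 0.12 without the 2.

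In the Notch pathway, 2 of 18 measured genes were higher and 2 lower with all arrays, and Dll4 alone was called in both fits. These shares were near those over all features, which were 11.2% and 8.62% with all arrays and 2.55% higher in both fits. Dll4, a Notch ligand of arterial endothelium, was at -1.33, -1.26, -1.24 and -1.13 at 84 h and at -0.80, -0.38, -0.64 and -0.66 at 95 h. Every 95 h array exceeded every 84 h array, and Dll4 rose by 0.62 (SE 0.13, adjusted p = 0.0051) and by 0.67 without the 2 arrays (adjusted p = 0.0221). Its call was lost with quantile normalization and when limma weighted the arrays, in each case with all arrays and without the 2. The receptor Notch1 had a difference of -0.94 (adjusted p = 0.00533) with all arrays and of -0.80 without the 2, which missed the threshold (adjusted p = 0.0661).

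**Figure D2:**
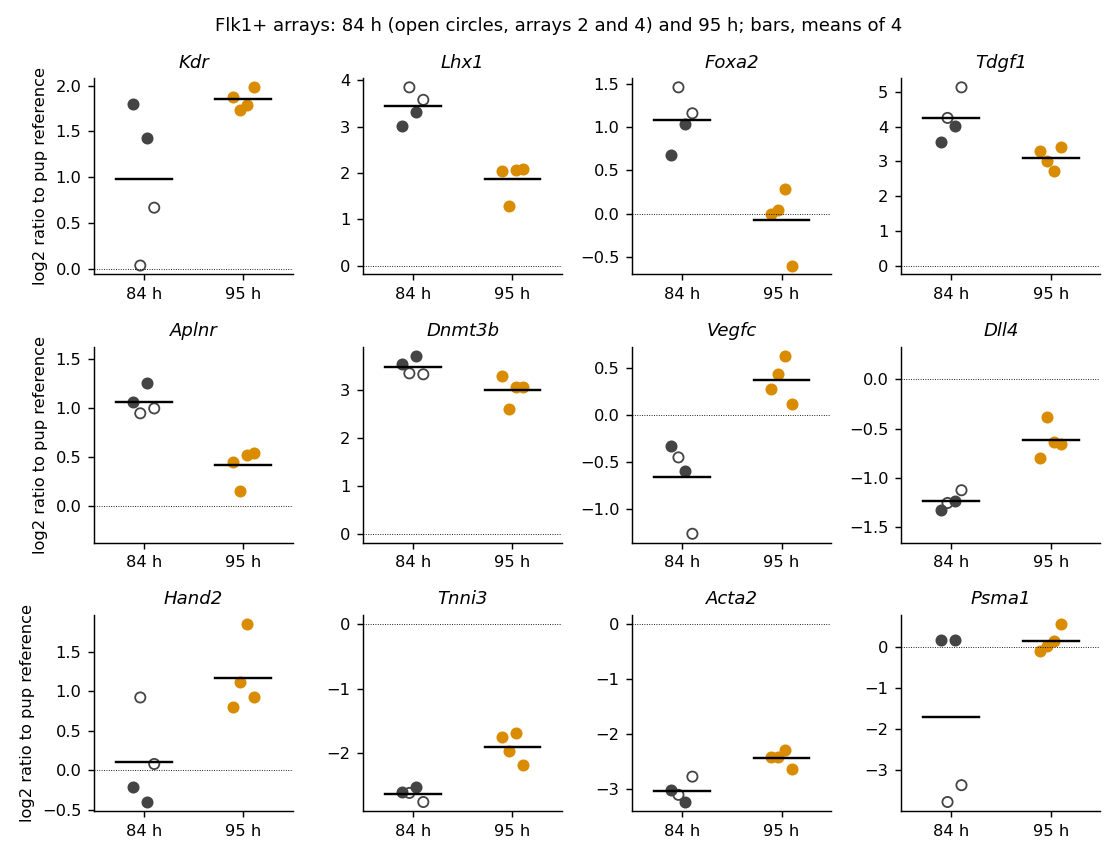
Levels of 12 genes on the 8 Flk1+ arrays, as log2 ratio to the pup reference, at 84 h (dark) and 95 h (orange). Open circles are 84 h arrays 2 and 4, bars are means of 4 arrays, the dotted line is 0 and each gene has its own scale. Open and filled 84 h circles lie together for Dll4 and Aplnr but apart for Kdr and for Psma1, a proteasome subunit.

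Genes of the 4 Wnt lists were called about as often as all features with all arrays, and none was called in both fits, where 2.55% of all features were higher and 0.889% lower. Of 14 measured ligands and receptors 1 was higher and 1 lower with all arrays, of 20 intracellular components 3 were higher and 2 lower, of 5 secreted inhibitors 1 was lower, and of 8 target genes 1 was higher. Wnt5b, a ligand best known for beta-catenin-independent signalling, was at 0.40, -0.47, 0.73 and -0.12 at 84 h and at 0.57, 0.91, 1.06 and 1.07 at 95 h. Arrays 2 and 4 of 84 h were its 2 lowest values, and the difference was 0.77 with them (adjusted p = 0.0154) and 0.34 without them (adjusted p = 0.321).

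Ctnnb1, which encodes beta-catenin, was at -0.56, -3.03, -0.66 and -2.45 at 84 h and between -0.57 and -0.16 at 95 h. Its difference was 1.33 (adjusted p = 0.0175) with all arrays and 0.26 (adjusted p = 0.438) without arrays 2 and 4. Both Ctnnb1 probes showed this, with 1.29 and 1.37 against 0.31 and 0.22. Lef1, a nuclear partner of beta-catenin and itself a Wnt target, had 0.78 (adjusted p = 0.0368) against 0.09 (adjusted p = 0.787), and Wls, which carries Wnt proteins to the cell surface, had 0.63 (adjusted p = 0.0298) against 0.09 (adjusted p = 0.742). The Wls probes disagreed, at 1.33, 0.80 and -0.22 with all arrays.

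The 4 lower Wnt genes named here missed the threshold without arrays 2 and 4 as well. Frzb, a secreted Wnt inhibitor, was at 1.95, 1.60, 1.90 and 2.31 at 84 h and at 1.53, 1.23, 1.36 and 1.47 at 95 h, with no overlap. Its difference was -0.54 (adjusted p = 0.0439) with all arrays and -0.53 (adjusted p = 0.156) without the 2. Dvl2, a cytoplasmic Wnt transducer, had -0.46 (adjusted p = 0.0226) and -0.25 (adjusted p = 0.268), and the Frizzled receptor Fzd5 had -0.35 (adjusted p = 0.0389) and -0.28 (adjusted p = 0.254). Tcf7l2, a nuclear effector, had -0.40 (adjusted p = 0.0434) and -0.20 (adjusted p = 0.46).

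The mesoderm regulator Hand2 rose. This bHLH factor of lateral plate and heart mesoderm was at -0.21, 0.92, -0.40 and 0.08 at 84 h and at 0.80, 1.11, 1.85 and 0.92 at 95 h. Array 2 of 84 h overlapped with the 95 h arrays. The difference was 1.08 (SE 0.26, adjusted p = 0.00935) with all arrays and 1.48 (adjusted p = 0.00373) without arrays 2 and 4. Of 19 measured lateral plate and extraembryonic mesoderm genes 2 were called in both fits, Hand2 as higher and Aplnr as lower. Over all features 2.55% were higher and 0.889% lower in both fits. With all arrays 1 of the 19 was higher and 4 lower, against 11.2% and 8.62% of all features, and the list's median was -0.01. Hand1, Gata4, Gata6 and Tbx20, which are also factors of this mesoderm, had differences of -0.16, -0.01, 0.08 and -0.15 that were not called, and of 0.21, 0.11, 0.02 and 0.03 without arrays 2 and 4.

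Of 31 measured BMP and TGF-beta genes, 6 were higher and 1 lower with all arrays, but only Nog was called in both fits. Over all features 11.2% were higher and 8.62% lower with all arrays, and 2.55% were higher in both fits. Nog encodes the BMP antagonist noggin and went from 0.32, 0.08, -0.47 and -0.11 at 84 h to 0.73, 0.93, 0.90 and 0.76 at 95 h. The groups did not overlap, and Nog rose by 0.88 (SE 0.17, adjusted p = 0.00325) and by 0.91 without the 2 arrays (adjusted p = 0.0196). The median of the list was 0.28 with all arrays and 0.04 without arrays 2 and 4. The ligand Bmp4 had -0.31 (adjusted p = 0.163) and -0.03 (adjusted p = 0.943).

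Contractile genes of heart muscle had mean levels of -2.17 to -1.79 over the 84 h arrays and -1.86 to -1.75 over the 95 h arrays, and those that were called rose. With all arrays 7 of 18 were higher and 0 lower, and 4 were called in both fits, against 11.2% and 2.55% of all features. Tnni3, cardiac troponin I, was at -2.60, -2.61, -2.52 and -2.75 at 84 h and at -1.75, -1.97, -1.68 and -2.18 at 95 h. The 84 h arrays, 2 and 4 included, lay within a narrow range, all below the 95 h arrays. Tnni3 rose by 0.73 (SE 0.11, adjusted p = 0.000854), and by 0.67 without the 2 arrays (adjusted p = 0.00729), but it was not called with quantile normalization and without them (0.38, adjusted p = 0.118).

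The other 3 were Tnnt2 (cardiac troponin T, 0.59, adjusted p = 0.00893), Smpx (a small muscle protein, 0.52, adjusted p = 0.0108) and Actn2 (alpha-actinin 2, 0.48, adjusted p = 0.0158), with 0.66, 0.54 and 0.56 without arrays 2 and 4. Smpx, at -4.59 to -4.24 at 84 h, had a difference of -0.06 after quantile normalization of all arrays (adjusted p = 0.76). Nppa, which encodes atrial natriuretic peptide, and Tnnc1, troponin C, were called with all arrays only, at 0.53 (adjusted p = 0.0402) and 0.52 (adjusted p = 0.0152), and had 0.63 (adjusted p = 0.0976) and 0.49 (adjusted p = 0.0744) without the 2. The list's median was 0.27 with all arrays and 0.34 without the 2, but -0.07 after quantile normalization of all arrays.

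Acta2, smooth muscle actin, was at -3.02, -3.10, -3.23 and -2.77 at 84 h and at -2.41, -2.41, -2.28 and -2.63 at 95 h, with no overlap. It rose by 0.60 (SE 0.11, adjusted p = 0.00223) and by 0.69 without the 2 arrays (adjusted p = 0.0033), while quantile normalization without them gave 0.38 (adjusted p = 0.105). It was the only one of 16 smooth muscle and fibroblast genes called in both fits, where 2.55% of all features were higher. With all arrays 3 of the 16 were higher, against 11.2% of all features. Lama4, a laminin chain of vascular basement membranes, was at -2.05, -2.50, -2.27 and -2.80 at 84 h and at -1.40, -1.19, -1.01 and -1.55 at 95 h. No value overlapped, and Lama4 rose by 1.12 (SE 0.16, adjusted p = 0.000415) and by 0.87 without the 2 arrays (adjusted p = 0.00489). Of 30 matrix genes 3 were higher with all arrays, and Lama4 alone was called in both fits, near the 11.2% and 2.55% of all features.

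Genes of other cell types that the sorted population could hold were also counted. Over all features 11.2% were higher and 8.62% lower with all arrays, and 2.55% and 0.889% in both fits. Among 7 hemangioblast and early blood regulators no call was made, and Gata1, an erythroid factor, was at -0.39 (adjusted p = 0.102), and at -0.54 without arrays 2 and 4 (adjusted p = 0.134). Of 7 erythroid genes 2 were lower with all arrays and 0 in both fits, and their mean level was -0.31 to 0.37 over the 84 h arrays and -0.52 to -0.31 over the 95 h arrays, the 2 highest being 84 h arrays 2 and 4. Of 7 leukocyte and platelet genes 2 were called in both fits. These were Ppbp, a platelet chemokine, and Lyz2, a lysozyme of myeloid cells. Ppbp was at -2.70, -1.91, -3.27 and -2.92 at 84 h and at -1.65, 1.11, -1.76 and -1.84 at 95 h. It rose by 1.67 (adjusted p = 0.0135), and its highest value was that of 95 h array 2. Without that array the difference was 0.96 (adjusted p = 0.0161), and without 84 h arrays 2 and 4 it was 1.95.

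Lyz2 had a difference of 0.29 (adjusted p = 0.0202), 0.38 without arrays 2 and 4 (adjusted p = 0.00843) and -0.01 after quantile normalization of all arrays (adjusted p = 0.949). The pan-leukocyte gene Ptprc was not called (-0.11, adjusted p = 0.853), also not when arrays 2 and 4 were left out (0.63, adjusted p = 0.316). The mean level of the 7 leukocyte and platelet genes was -1.47 to -0.74 over the 84 h arrays and -1.12 to -0.50 over the 95 h arrays. Of 11 neural genes 2 were higher and 2 lower with all arrays, against 11.2% and 8.62% of all features. Pax6, a paired-box factor of neural and eye tissue, was called in both fits at 1.22 (adjusted p = 0.0177) and 1.80 (adjusted p = 0.00227), with overlapping groups. Its call was lost without 95 h array 2 (1.10, adjusted p = 0.0511). The part of these cell types in the other results was not tested.

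Krt18, a keratin of simple epithelia, was at 0.23, -1.46, 0.20 and -1.08 at 84 h and at 1.09, 0.80, 1.14 and 0.85 at 95 h. It rose by 1.50 (adjusted p = 0.00288) with all arrays and by 0.76 without arrays 2 and 4 (adjusted p = 0.0476), so 84 h arrays 2 and 4 supplied much of the size. It was the only one of 21 epithelial genes called in both fits, where 2.55% of all features were higher. With all arrays 2 of the 21 were higher, against 11.2% of all features, and the list's median was -0.11. Of 15 genes of the mesenchymal transition 3 were higher and 1 lower with all arrays, against 11.2% and 8.62% of all features. In both fits 0 of them were called.

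Among all named genes called in both fits with no overlap between the arrays, Cavin2 had the largest rise, with the ratio read as sample over reference. Cavin2 encodes a coat protein of caveolae, the membrane pits abundant in endothelium and muscle. It was at -3.47, -3.93, -5.15 and -4.20 at 84 h and at -2.62, -2.28, -2.17 and -0.88 at 95 h. All 84 h values lay below all 95 h values, and Cavin2 rose by 2.20 (SE 0.37, adjusted p = 0.00129), which is 4.59-fold, and by 2.32 without arrays 2 and 4 (adjusted p = 0.00729).

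Ednrb, the endothelin receptor B, was at -3.82, -5.58, -4.25 and -4.17 at 84 h and at -2.77, -2.97, -2.76 and -3.41 at 95 h. It rose by 1.48 (adjusted p = 0.0011) and by 1.06 without arrays 2 and 4 (adjusted p = 0.00235), with no overlap. Mylk3, the cardiac myosin light-chain kinase, was at -3.51, -1.30, -2.29 and -1.39 at 84 h and at -0.50, -0.09, -1.12 and -0.64 at 95 h. Here arrays 2 and 4 were the highest of the 84 h arrays, and the difference grew from 1.53 (adjusted p = 0.0152) to 2.31 without them (adjusted p = 0.00423).

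Podxl, the sialomucin podocalyxin of epithelia and endothelium, was at 0.64, -0.75, 0.59 and -0.49 at 84 h and at 1.01, 1.43, 1.49 and 1.26 at 95 h, and rose by 1.30 (adjusted p = 0.00196) and by 0.68 without the 2 arrays (adjusted p = 0.0225). Chl1, a cell adhesion molecule of the L1 family, rose by 1.32 (adjusted p = 0.002) and by 1.49 without them (adjusted p = 0.00605). Pprc1, a transcriptional coactivator related to PGC-1, rose by 1.45 (adjusted p = 0.00131) and by 0.76 without them (adjusted p = 0.00906). The 84 h values of Podxl and Pprc1 fell into the same pairs, with arrays 2 and 4 low.

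Leaving out arrays 2 and 4 also reduced 3 other large rises. The zinc-finger gene Peg3, expressed from the paternal allele, had 1.49 (adjusted p = 0.00467) with all arrays and 0.56 (adjusted p = 0.0423) without them. Jpt1, a microtubule-associated protein, had 1.43 (adjusted p = 0.00253) and 0.72 (adjusted p = 0.039). Rassf1, a Ras-association tumour suppressor, had 1.41 (adjusted p = 0.0038) and 0.68 (adjusted p = 0.0301). In contrast, the uncharacterised A930009E05Rik had 1.31 (adjusted p = 0.0015) and 1.32 (adjusted p = 0.0122).

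After Lhx1, the largest falls with no overlap were those of Gm19784, a predicted gene, and of Greb1, an oestrogen-regulated gene. Greb1 was at 3.06, 3.49, 3.90 and 3.36 at 84 h and at 2.57, 1.74, 2.48 and 2.32 at 95 h, a difference of -1.18 (adjusted p = 0.00253) and of -1.20 without arrays 2 and 4 (adjusted p = 0.0174). Gm19784 had -1.35 (adjusted p = 0.00223) and -1.05 (adjusted p = 0.0198). D1Pas1, a DEAD-box helicase of the testis, fell by 1.15 (adjusted p = 0.012) and by 1.46 without arrays 2 and 4 (adjusted p = 0.0199), with 1 low value at 95 h, -1.03 on array 2.

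The small GTPase Rab18 had a difference of -1.00 (adjusted p = 0.00305), the germ-line Tudor gene Tdrd1 one of -0.99 (adjusted p = 0.000854) and Arid3b, an AT-rich DNA-binding factor, one of -0.90 (adjusted p = 0.00457). Skp1, a subunit of SCF ubiquitin ligases, had -0.81 (adjusted p = 0.00194), the replication-fork repair gene Tonsl -0.79 (adjusted p = 0.00211) and Antxr1, a collagen-binding membrane protein, -0.79 (adjusted p = 0.00253). Without arrays 2 and 4 these 6 lay between -1.03 and -0.59 and were still called. Pdk1, a kinase that restrains pyruvate oxidation, was the only one of 22 hypoxia and glycolysis genes called in both fits, at -0.69 (adjusted p = 0.0152) and -0.70 (adjusted p = 0.0467), and its call was lost without 84 h array 2 alone (-0.55, adjusted p = 0.0571). Over all features 0.889% were lower in both fits. With all arrays 3 of the 22 genes were higher and 1 lower, against 11.2% and 8.62% of all features. The median of the 22 was 0.14.

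Most calls in the lists of general cell machinery were lost without 84 h arrays 2 and 4, as were 2851 of the 3451 calls over all features. Of 33 proteasome genes 14 were higher with all arrays, against 11.2% of all features. In both fits 1, Psmb7, was called, near the 2.55% of all features that were higher there. The proteasome median fell from 0.76 to 0.08 when arrays 2 and 4 were left out. Psma1, a proteasome core subunit, was at 0.16, -3.78, 0.17 and -3.37 at 84 h and at -0.10, 0.01, 0.13 and 0.56 at 95 h. Its difference was 1.86 (adjusted p = 0.0498) with all arrays and -0.01 (adjusted p = 0.991) without the 2. Psmb7, another core subunit, kept its call with 1.05 (adjusted p = 0.00258) and 0.56 (adjusted p = 0.0376).

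For the next 3 lists, the shares over all features were 11.2% higher and 8.62% lower with all arrays, and 2.55% and 0.889% in both fits. Of 46 cytosolic ribosomal proteins 15 were higher and 1 lower with all arrays, and of 57 genes of the respiratory chain and ATP synthase 19 were higher and 4 lower, with 0 of either list called in both fits. Their medians were 0.27 and 0.35 with all arrays and 0.07 and 0.06 without the 2. Among 40 cell cycle genes 10 were higher and 2 lower, and Mcm2, a subunit of the replicative helicase, and Bub1b, a spindle checkpoint kinase, were called in both. Bub1b was at 0.49, 0.61, 0.63 and 0.45 at 84 h and at 1.17, 1.32, 1.05 and 1.16 at 95 h, and rose by 0.62 (adjusted p = 0.0061) and by 0.61 without the 2 arrays (adjusted p = 0.0431). The 84 h arrays agreed for Bub1b, while for Mcm2 the difference was 1.00 (adjusted p = 0.00172) with all arrays and 0.60 (adjusted p = 0.033) without arrays 2 and 4.

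Of 35 chromatin regulators 5 were higher and 4 lower with all arrays, against 11.2% and 8.62% of all features. In both fits, where 2.55% of all features were higher and 0.889% lower, 3 regulators were called, Dnmt3b among them. The others were Ehmt2 (G9a, a histone H3 methyltransferase), at 1.02 (adjusted p = 0.00114) and 0.67 (adjusted p = 0.0107), and Chd4 (a NuRD remodeller), at 1.05 (adjusted p = 0.00467) and 0.48 (adjusted p = 0.0392). Of 13 immediate early or heat shock genes, 5 were higher with all arrays and 0 in both fits, against 11.2% and 2.55% of all features. The list's median went from 0.50 to 0.23.

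The largest calls lost without arrays 2 and 4 were, among the higher ones, Rps3a1 (a ribosomal protein, 1.94 against 0.15), Cct2 (a chaperonin subunit, 1.91 against 0.51), Birc5 (survivin, 1.88 against 0.24), Psma1 and Pfdn6 (a prefoldin subunit, 1.84 against 0.61). Among the lower ones they were Adh7 (an alcohol dehydrogenase, -2.28 against -0.87), Cwc22 (a splicing factor, -1.70 against -0.29), Lin52 (a cell cycle gene regulator, -1.62 against -0.21), Tyw1 (a tRNA-modifying enzyme, -1.51 against -0.29) and Clvs2 (clavesin, -1.40 against -0.72). Array 2 gave 84 h values of 2.09 to 3.84 for the 5 lower ones, above every other Flk1+ array of either time.

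**Figure D3:**
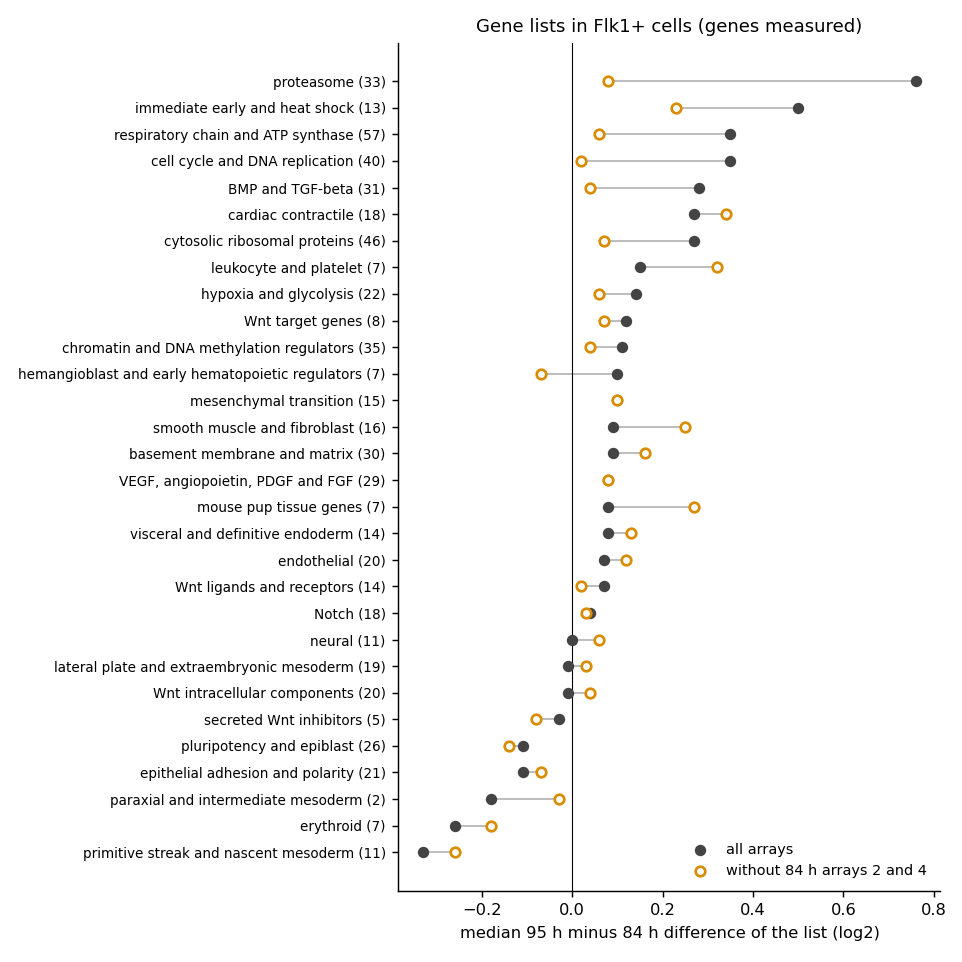
Median 95 h minus 84 h difference (log2) of each gene list in Flk1+ cells, with the number of genes measured in brackets. Filled circles are the fit with all arrays and open circles the fit without 84 h arrays 2 and 4. The proteasome median moved from 0.76 to 0.08, that of cardiac contractile genes from 0.27 to 0.34 and that of streak genes from -0.33 to -0.26.

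The features called in both fits shared a position on the scale of ratios to the pup reference. Of the 445 higher ones, 423 (95.1%) lay below 0 at 84 h, and their median level went from -1.06 to -0.32. Of the 155 lower ones 141 (91%) lay above 0 at 84 h, with a median going from 0.69 to -0.01. Compared with 84 h arrays 1 and 3, 481 of the 600 (80.2%) were closer to 0 at 95 h, against 10601 of all 17440 features (60.8%). The 600 were chosen by the difference between these same levels, which favours extreme levels at 84 h, so these shares are a description. The spread of each array over features narrowed in the same order, with SDs of 0.792 to 0.835 on 84 h arrays 1 and 3, 0.724 to 0.766 at 95 h and 0.547 to 0.585 on the Flk1+ arrays of 8 d.

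Quantile normalization without arrays 2 and 4, which removes differences in spread, kept 182 of the 600 calls. These were 117 higher features (0.671%) and 65 lower ones (0.373%), with 62 named genes. Of the genes described here and called in both fits, Cavin2, Chl1, Ednrb, Mylk3, Hand2, Pax6, Angpt1, Vegfc, Pprc1, Podxl, D1Pas1, Gm19784, Rab18 and Tdrd1 were among them. For Vegfc the difference was then 0.64 (adjusted p = 0.0195) and for Hand2 1.33 (adjusted p = 0.0162). Lhx1 and Foxa2 were not called, at -0.90 (adjusted p = 0.22) and -0.81 (adjusted p = 0.0955).

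**Figure D4:**
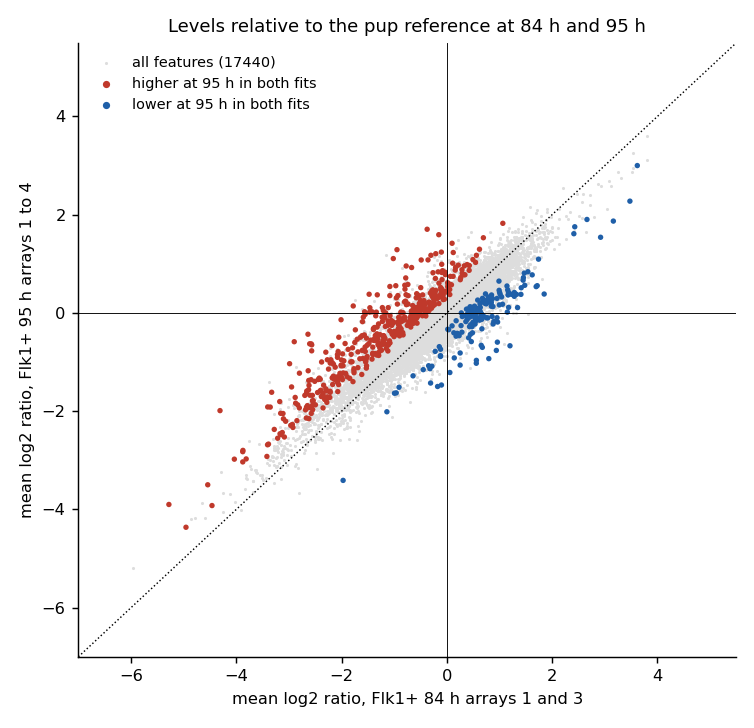
Level of each of 17440 features at 95 h (y axis, mean of 4 arrays) against its level on 84 h arrays 1 and 3 (x axis, mean of 2), both as log2 ratio to the pup reference. Most red points, higher at 95 h in both fits, lie left of 0 and above the dotted line of equal levels, and most blue points, lower in both fits, lie right of 0 and below it.

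The same interval in Flk1- cells gave fewer calls, with 184 features higher (1.06%) and 102 lower (0.585%). Of the 600 features called in both fits of Flk1+ cells, 524 had a difference of the same sign in Flk1- cells, against 10931 of all 17440 features. The median difference of the 445 higher ones was 0.29 in Flk1- cells and that of the 155 lower ones -0.23. Whether a change differed between the sorts was tested as an interaction. With all arrays it was called for 1 feature (0.00573%), an unnamed probe, and 2686 had an unadjusted p under 0.05. Without 84 h arrays 2 and 4 it was called for 34 features (0.195%), and after quantile normalization without them for 0, with 1269 at an unadjusted p under 0.05 in limma.

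No named gene was therefore shown to change differently in Flk1+ and Flk1- cells with all arrays. Lhx1 fell in Flk1- cells too, by 1.25 (adjusted p = 0.0178), and the adjusted p of the interaction was 0.677. Acta2 rose by 0.83 there (adjusted p = 0.00162), Nrp1 by 0.65 (adjusted p = 0.00365) and Tnni3 by 0.51 (adjusted p = 0.0206). Dnmt3b fell by 0.99 in Flk1- cells (adjusted p = 0.00162) and Otx2 by 0.86 (adjusted p = 0.00525). Vegfc, with 0.19 in Flk1- cells (adjusted p = 0.663), and Aplnr, with -0.10 (adjusted p = 0.849), were not called there, and their interactions had adjusted p of 0.231 and 0.292.

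Of the named genes with an interaction called without arrays 2 and 4, Traf3ip3, a TRAF3-interacting protein, had the largest, at 2.54 (SE 0.39, adjusted p = 0.0138), changing by 1.27 in Flk1+ and by -1.27 in Flk1- cells. Gfra1, a coreceptor for GDNF, had an interaction of 1.83 (adjusted p = 0.0427). It was at -2.62, -0.84, -2.54 and -1.73 at 84 h and at -0.68, -1.05, 0.01 and -0.80 at 95 h in Flk1+ cells, and its change in Flk1- cells was 0.12. Vstm2b, a membrane protein of the immunoglobulin family, had -0.71 (adjusted p = 0.0266), with 0.01 in Flk1+ and 0.72 in Flk1- cells.

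Levels at 8 d placed the interval in the longer course. In Flk1+ cells Lhx1 went from 3.44 ± 0.36 at 84 h and 1.87 ± 0.39 at 95 h to 0.00 ± 0.30 at 8 d (SD, n = 4), a further fall of 1.87 between 95 h and 8 d (adjusted p = 2.35e-05). Dnmt3b went from 3.47 ± 0.18 and 3.00 ± 0.29 to 0.97 ± 0.11. Acta2 rose by 0.60 up to 95 h and then by 3.69 up to 8 d (adjusted p = 8.69e-16), and Nrp1 by 0.47 and then by 1.69 (adjusted p = 1.61e-10).

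Other genes did not change further beyond the spread. Tnni3 was at -1.90 ± 0.23 at 95 h and -1.87 ± 0.10 at 8 d, a difference of 0.03 (adjusted p = 0.901). For Vegfc the difference was 0.13 (adjusted p = 0.625), for Foxa2 0.35 (adjusted p = 0.228) and for Aplnr -0.36 (adjusted p = 0.111). The differences from 84 h to 95 h and from 95 h to 8 d share the 95 h arrays.

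**Figure D5:**
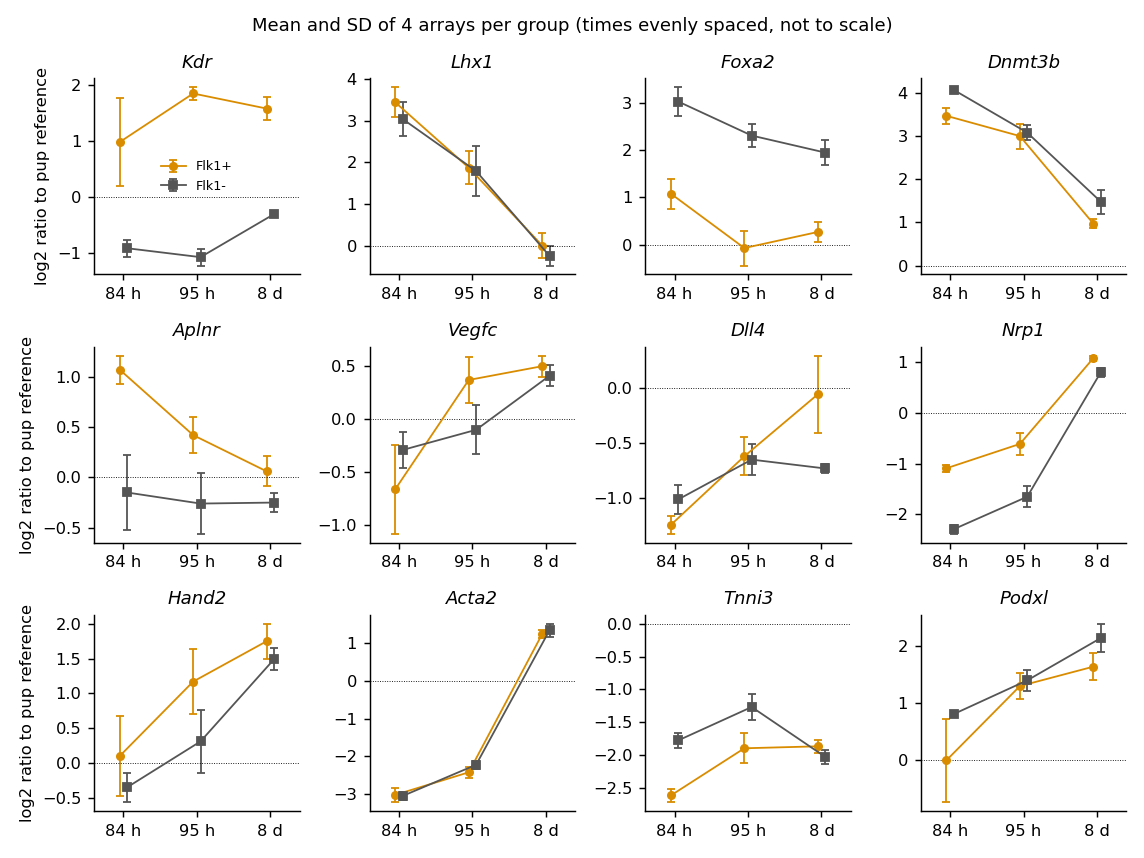
Mean log2 ratio to the pup reference of 12 genes at 84 h, 95 h and 8 d, with Flk1+ cells as orange circles and Flk1- cells as grey squares. Bars are SDs of 4 arrays, times are evenly spaced and each gene has its own scale. Kdr separates the sorts at all times, with 95 h means of 1.85 in Flk1+ and -1.08 in Flk1- cells, whereas Lhx1 falls in both.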

How the data were processed

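Values came from the series' table of 24 arrays, deposited by the authors as 1 log2 ratio per probe and array, read as Cy5 sample over Cy3 reference. Neither the log base and direction nor the background correction and normalization is given in the sources used here, and each array averages 0 as deposited. With another base all differences would share 1 factor, and with the ratio turned all signs would change. As read here Kdr exceeds its level in Flk1- cells by 1.91 at 84 h and 2.93 at 95 h in the Flk1+ sort. Of 20280 probes, 11813 had 1 gene in the platform annotation. Array medians were set to 0 and probes of 1 gene averaged, giving 17440 features. R 4.3.3 with limma 3.58.1 (lmFit, eBayes) fitted 1 mean per group (18 residual degrees of freedom), with Benjamini-Hochberg adjustment over all features. On simulated data 77 of 100 features changed by 1, and 100 of 100 changed by 2, were recovered, with 2 false calls. The simulated noise had 1 SD per feature in all groups and no arrays that stood apart, so these rates do not carry over to the arrays compared. Figures used matplotlib 3.10.9. Genes named were Kdr, the 12 largest changes in each direction called in both fits without overlap, up to 4 list members per direction called in both fits, the 5 largest lost calls per direction and the largest interactions. Uncalled list members, Gfra1, Vstm2b, Traf3ip3 and the genes under other observations were added after their values were seen. The members and the 30 lists were chosen with earlier results of these data known. The labels name no slide or scan, so no batch was tested. Alternatives covered the arrays in the fit, centring, quantile normalization, array weights, probe choice, a filter, the variance model and a replicate block.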

Additional observations from a re-analysis of the deposited data

Results flagged for a closer look

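In 8 of 198 groups of 4 arrays examined, 1 array lay far from the other 3 by Dixon's criterion, which chance gives in about 1 of 20 groups. The share was 4.04%. In 5 of them the array was 95 h array 2. D1Pas1 was at -1.03 there against 0.66 to 0.97 on the others, Lhx1 at 1.28 against 2.04 to 2.08, Mesp1 at 3.30 against 3.70 to 3.72, Ppbp at 1.11 against -1.84 to -1.65, and Rab18 at -0.24 against 0.54 to 0.61. On 95 h array 4, Myog was at -0.44 against -0.07 to -0.05. At 84 h, Gm19784 was at 1.63 on array 2 against 0.38 to 0.54, and Skp1 at 0.45 on array 1 against 0.87 to 0.90.

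An unnamed probe was the single feature whose change differed between the sorts with all arrays, by 1.05 (SE 0.15, limma adjusted p = 0.00792). It changed by 0.67 in Flk1+ and by -0.38 in Flk1- cells.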

How the results depend on the processing

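The number of features called (3451 with all arrays) moved by more than 1.5 times under these settings: 0 with only the 8 arrays compared, 552 with the 16 arrays of 84 h and 95 h, 804 with array weights, 1580 with quantile normalization, 557 with a difference of at least 1, 882 without 84 h arrays 2 and 4, and 951 when Flk1- 84 h array 4 was left out too. Settings added after seeing the data gave 7737 with only 84 h arrays 2 and 4, and, without those arrays, 0 with only the arrays compared, 115 with the arrays of 84 h and 95 h, 246 with quantile normalization and 664 with array weights. Leaving out 1 array at a time gave 1637 (84 h array 4) to 5358 (84 h array 1), with 1895 without 84 h array 2 and 2158 without 95 h array 2. The 600 features called in both fits became 0 with only the arrays compared, 70 with the arrays of 84 h and 95 h and 144 with quantile normalization, and ranged from 114 (without 84 h array 3) to 862 (without 95 h array 4), with 250 without 84 h array 1. Without 84 h array 1 or 3, the fit that also leaves out arrays 2 and 4 has a lone 84 h array, assumed to vary like the other groups.

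The interaction, called for 1 feature, gave 0 with the arrays of 84 h and 95 h and with quantile normalization, 46 with array weights, 34 without 84 h arrays 2 and 4, 31 without Flk1- 84 h array 4 as well, 1 to 11 when leaving out 1 array, and, in added settings, 5035 with only 84 h arrays 2 and 4 and, without them, 0 (arrays of 84 h and 95 h), 0 (quantile) and 88 (array weights).

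Kdr's difference of 0.86 lost its call with only the arrays compared (0.86), the arrays of 84 h and 95 h (0.86), array weights (0.36), and without 84 h arrays 2 and 4 (0.23, and also 0.23 without Flk1- 84 h array 4, 0.23 with only the arrays compared, 0.23 with those of 84 h and 95 h, 0.30 with quantile normalization and 0.25 with array weights), and ranged from 0.55 to 1.14 when leaving out 1 array, with the call lost without 84 h array 2 (0.55) or array 4 (0.76).

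Signs turned for Cd34 (-0.03), Cdh5 (-0.32), Dnmt3b (0.04), Lyz2 (-0.01), Mesp1 (0.06), Smpx (-0.06) and Zfp42 (0.32) with quantile normalization, for Cdh5 (-0.17), Gsc (0.04) and Mesp1 (0.06) with it and without arrays 2 and 4, for Nanog (0.11) and Zfp42 (0.87) with only arrays 2 and 4, for Psma1 (-0.01) in each of 4 settings without them, and for Zfp42 when 84 h array 1 (0.22), 84 h array 3 (0.31) or 95 h array 3 (0.02) was left out, within a range of -0.42 to 0.31 over such settings. The causes were not tested. The rule's 48 named genes called in both fits kept direction and call in 48 cases with the values as deposited, 46 with 1 probe per gene, 33 with the arrays of 84 h and 95 h, 14 with quantile normalization without arrays 2 and 4, 7 with the arrays of 84 h and 95 h without arrays 2 and 4, and 0 with only the arrays compared.

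Between Flk1+ samples of 84 h and 95 h, deviations from the group means correlated at -0.0760 to 0.0403 for same numbers. For different numbers the range was -0.0935 to 0.0875, so no pairing by number was seen across the times. Pairing of Flk1+ with Flk1- samples of the same time was not examined. A replicate block gave 3631 calls, and 492 in both fits. No signal over background was available to limit low ratios.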

Other observations

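Further genes called in both fits, chosen after their values were seen, had no overlap between the times unless stated. Fgf7, a fibroblast growth factor of mesenchyme, was at -2.57, -2.42, -2.46 and -2.48 at 84 h and at -0.96, -1.25, -1.84 and -1.53 at 95 h, and rose by 1.09 (SE 0.16, limma adjusted p = 0.000521) and by 1.12 without 84 h arrays 2 and 4. Gdf10, a BMP-family ligand, rose by 1.14 (adjusted p = 0.00116) and by 1.02 without them. The homeobox gene Prox1, known for lymphatic endothelium, liver and heart, went from between -1.85 and -1.46 to between -0.88 and -0.67 (0.90, adjusted p = 0.0013, and 0.84 without them). Jam2, a junctional adhesion molecule of endothelium, rose by 1.05 (adjusted p = 0.00186), and by 0.60 without them (adjusted p = 0.022). Among lower genes, Irx5, an Iroquois homeobox gene, fell by 0.77 (adjusted p = 0.00436) and Lpar4, a lysophosphatidic acid receptor, by 0.70 (adjusted p = 0.00807), and both differences were -0.77 without them. Of these 6, Fgf7 and Lpar4 were also called after quantile normalization without 84 h arrays 2 and 4, at 0.87 (adjusted p = 0.0427) and -0.65 (adjusted p = 0.0383).

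Muscle genes with levels below 0 did not all rise, and the 4 risers given here were likewise chosen after their values were seen. The actin genes Actc1 and Acta1, and Ankrd1, were not called, at -0.40, 0.01 and 0.13 with all arrays. Myoglobin (Mb) rose by 0.68 (adjusted p = 0.00534), the myogenic factor Myog by 0.69 (adjusted p = 0.00813), the Z-disc gene Ldb3 by 0.54 (adjusted p = 0.0143) and the calcium-binding gene Hrc by 0.58 (adjusted p = 0.00523), the last with overlap. Without 84 h arrays 2 and 4 these differences were 0.86, 0.90, 0.71 and 0.67. The call on Ldb3 was lost without 95 h array 2 (0.43, adjusted p = 0.0511), and its probes gave 0.99 and 0.09 with all arrays. None of these 4 genes was called after quantile normalization without arrays 2 and 4, where their adjusted p ran from 0.0916 to 0.215. The membrane-binding annexins Anxa2 and Anxa5 rose by 1.04 (adjusted p = 0.00134) and 1.00 (adjusted p = 0.002), and the imprinted RNA H19 by 0.47 (adjusted p = 0.0029), also without that call, at adjusted p of 0.184, 0.296 and 0.283. Without 84 h arrays 2 and 4 they had 0.82, 0.75 and 0.41.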
